A study of Mus musculus with 2 samples.

Results

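The matrix metalloproteinases and their tissue inhibitors were followed through leukocytes of the pressure-overloaded mouse heart. The members were the 10 genes whose symbols are *Mmp8*, *Mmp9*, *Mmp12*, *Mmp13*, *Mmp14*, *Mmp19*, *Adam8*, *Timp1*, *Timp2* and *Timp3*, and each of them had a row among the 27809 genes of the matrix. CD45+ cells came from hearts of male mice of C57BL/6 background (strain labelled C57BL/6N), 8 weeks of age, 1 week after transverse aortic constriction (TAC), which narrows the aorta and loads the left ventricle, or after a sham operation. The 5 groups were WT sham, CD3e-/- sham, WT TAC, CD3e-/- TAC and WT TAC with intraperitoneal anti-CD8 antibody (labelled CD8-depleted TAC). CD3e-/- mice lack a subunit of the T cell receptor complex and so have no mature T cells, and all cells were released by enzymes and selected on anti-CD45 beads. The groups were told apart by hashtag antibodies and sequenced in 1 pooled library, so each group was 1 sample, the number of mice behind a hashtag was not given in the sources used here, and no test between groups was possible.

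Matrix metalloproteinases are zinc-dependent enzymes that cut collagen, elastin and other proteins of the extracellular matrix, most of them secreted as inactive proenzymes. Tissue inhibitors of metalloproteinases (TIMPs) bind the active site of these enzymes and hold them in check, and TIMP2 also takes part in the activation of pro-MMP2 at the cell surface together with MMP14. ADAM8 belongs to a related family of membrane proteases that release the outer parts of other membrane proteins. In the heart, leukocytes and fibroblasts both make such enzymes and inhibitors, and the matrix is remodelled when the ventricle is loaded.

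Of the cells with a hashtag, 5263 had at least 500 detected genes and a mitochondrial fraction no higher than 0.4, from 835 in CD3e-/- sham to 1615 in WT TAC, and no cell barcode was shared by groups. Median reads per cell ranged from 75442 in WT sham to 117788 in CD3e-/- TAC, and the values counted reads, not molecules. *Cd3g*, which needs no CD3e to be transcribed but marks T cells, had a read in 5.3% of WT sham cells (53 of 1000, exact interval 3.99 to 6.88%), in 3 of 835 CD3e-/- sham cells and in 1 of 919 CD3e-/- TAC cells. *Cd3e* itself had a read in 5.03% of CD3e-/- sham and 9.03% of CD3e-/- TAC cells, against 6.9% and 6.38% in WT. Its level was 3.73 and 5.64 CPM (reads per 1000000 reads), against 17.8 and 10.8 CPM. *Cd3d* had a read in 8.62% and 8.81% of CD3e-/- cells, against 11.8% and 10.8%. Its level was 1.84 and 1.23 CPM, against 24.4 and 12.4 CPM. *Cd8a* had a read in 0.895% of cells labelled CD8-depleted TAC (8 of 894, 0.387 to 1.76%) and in 0.991% of WT TAC cells (16 of 1615, 0.567 to 1.60%). For *Cd8b1* the shares were 0.671% (6 of 894, 0.247 to 1.46%) and 0.743% (12 of 1615, 0.385 to 1.29%). Its level was 7.74 and 10.7 CPM. No CD3e-/- cell had a *Cd8b1* read (0 of 835 in sham and 0 of 919 after TAC). Reads of both genes were thus present under the CD8-depleted label, and the intervals overlapped those of WT TAC. With so few cells a partial loss of CD8 cells could not be told from none. Monocytes and macrophages were gated on *Csf1r*, the receptor for macrophage colony-stimulating factor, at 200 or more and *Lyz2*, lysozyme, at 1000 or more reads per 1000000 reads (CPM), which left 3612 cells, namely 600 in WT sham, 503 in CD3e-/- sham, 1166 in WT TAC, 694 in CD3e-/- TAC and 649 in CD8-depleted TAC.

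The gated cells were then sorted into classes by the first of 6 gate genes past its limit, in the order *Retnla* (300 CPM, 165 cells), *Lyve1* (100 CPM, 199 cells), *Spp1* (300 CPM, 469 cells), *Ly6c2* (300 CPM, 551 cells), *Lilra5* (100 CPM, 637 cells) and *Cd209a* (200 CPM, 111 cells), and 1480 cells passed none. These classes are ranges of expression and not cell types. Of the gated cells, 281 passed the limits of 2 or more class genes, and from 23 cells for *Lyve1* to 352 cells for *Lilra5* lay within 2-fold of a limit. The other markers of a gate were highest in its own class for 5 of 5 genes with *Lyve1*, 4 of 4 with *Ly6c2*, 3 of 3 with *Lilra5*, 3 of 4 with *Retnla* and 2 of 4 with *Cd209a*. For the *Spp1* gate only *Fn1*, 1 of 3, was highest there, while *Thbs1* was highest in the *Ly6c2* class and *Arg1* in the *Cd209a* class. The shares of the classes differed between sham and TAC. In WT, *Lilra5*-gated cells were 29.2% of gated cells in sham (175 of 600, exact interval 25.6 to 33.0%) and 13.7% after TAC (160 of 1166, 11.8 to 15.8%), *Retnla*-gated cells were 10% (60 cells, 7.72 to 12.7%) and 2.401% (28 cells, 1.60 to 3.45%), *Spp1*-gated cells 5.67% (34 cells, 3.96 to 7.83%) and 15.7% (183 cells, 13.7 to 17.9%), and *Ly6c2*-gated cells 4.17% (25 cells, 2.71 to 6.09%) and 14.6% (170 cells, 12.6 to 16.7%). A member's level in a group therefore depends on the makeup of the gated cells as well as on the level in each class, and both are given.

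The genes for 3 members lie near each other on chromosome 9 in the RefSeq annotation of GRCm38.p6, namely *Mmp13* at chr9:7272514-7283333, *Mmp12* at chr9:7344397-7360461 and *Mmp8* at chr9:7558429-7568486. No other annotated gene lay in the 61063 bases between *Mmp13* and *Mmp12*, and 4 lay between *Mmp12* and *Mmp8*. The others were apart, with *Mmp9* at chr2:164940326-164955850, *Mmp14* at chr14:54431598-54442456, *Mmp19* at chr10:128790910-128800827, *Adam8* at chr7:139978932-139995207, *Timp1* at chrX:20870166-20874737, *Timp2* at chr11:118301061-118355411 and *Timp3* at chr10:86300412-86349505. RefSeq promoter windows (250 bases before to 50 after a start) were at hand for 8 of the 10 members. The letters TGANTCA, the core to which AP-1 factors such as FOS and JUN bind, read the same on both strands and were found in 7.81% of all 32851 promoter windows. Among the members they were present in the windows of *Mmp13* and of 1 of the 2 starts of *Mmp12*. Both genes were lower after TAC in CD3e-/- hearts, but they did not move together in every comparison. In WT, *Mmp12* went from 140 CPM in sham to 194 CPM after TAC and *Mmp13* from 113 to 48.7 CPM. In CD3e-/- sham *Mmp12* stood at 533 CPM and *Mmp13* at 106 CPM. The 250 bases before each of these starts are shown, with the matching letters in capitals.
Mmp13: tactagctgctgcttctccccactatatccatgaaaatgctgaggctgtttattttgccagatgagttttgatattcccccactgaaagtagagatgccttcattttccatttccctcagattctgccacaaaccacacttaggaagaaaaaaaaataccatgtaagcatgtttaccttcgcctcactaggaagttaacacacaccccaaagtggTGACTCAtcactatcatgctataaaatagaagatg
Mmp12: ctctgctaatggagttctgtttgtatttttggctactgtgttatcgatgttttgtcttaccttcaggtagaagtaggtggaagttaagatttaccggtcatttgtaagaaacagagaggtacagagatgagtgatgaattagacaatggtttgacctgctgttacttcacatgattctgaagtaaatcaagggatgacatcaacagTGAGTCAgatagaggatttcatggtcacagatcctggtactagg
The first stretch is chr9:7272264-7272513 and the other chr9:7347124-7347373, both on the plus strand of GRCm38.p6. The match began 35 bases before the start of *Mmp13* and 44 bases before that start of *Mmp12*. A match of letters is a description of the sequence only.

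The members differed in the classes that held their reads. *Mmp12* reads came mostly from *Retnla*-gated, *Spp1*-gated and unclassed gated cells, *Mmp8* reads mostly from *Ly6c2*-gated cells and *Mmp14* reads mostly from *Spp1*-gated and unclassed cells, *Lilra5*-gated cells held more of the *Mmp13* reads than any other class, and most *Mmp9* reads lay in cells with neutrophil markers and most *Timp3* reads in the few cells with fibroblast or endothelial markers. The share of a member's reads that came from gated cells was 88.3% for *Mmp8*, 90.9% for *Mmp12*, 88.7% for *Mmp13*, 81.2% for *Mmp14*, 87.5% for *Mmp19*, 68.2% for *Adam8*, 66.3% for *Timp1* and 89.1% for *Timp2*, against 27.8% for *Mmp9* and 6.38% for *Timp3*. Levels are CPM of summed reads with exact 95% Poisson intervals, which cover counting error only and, since several reads can stem from 1 molecule, are too narrow. Levels are compared between cells and groups and not between genes.

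**Figure D1:**
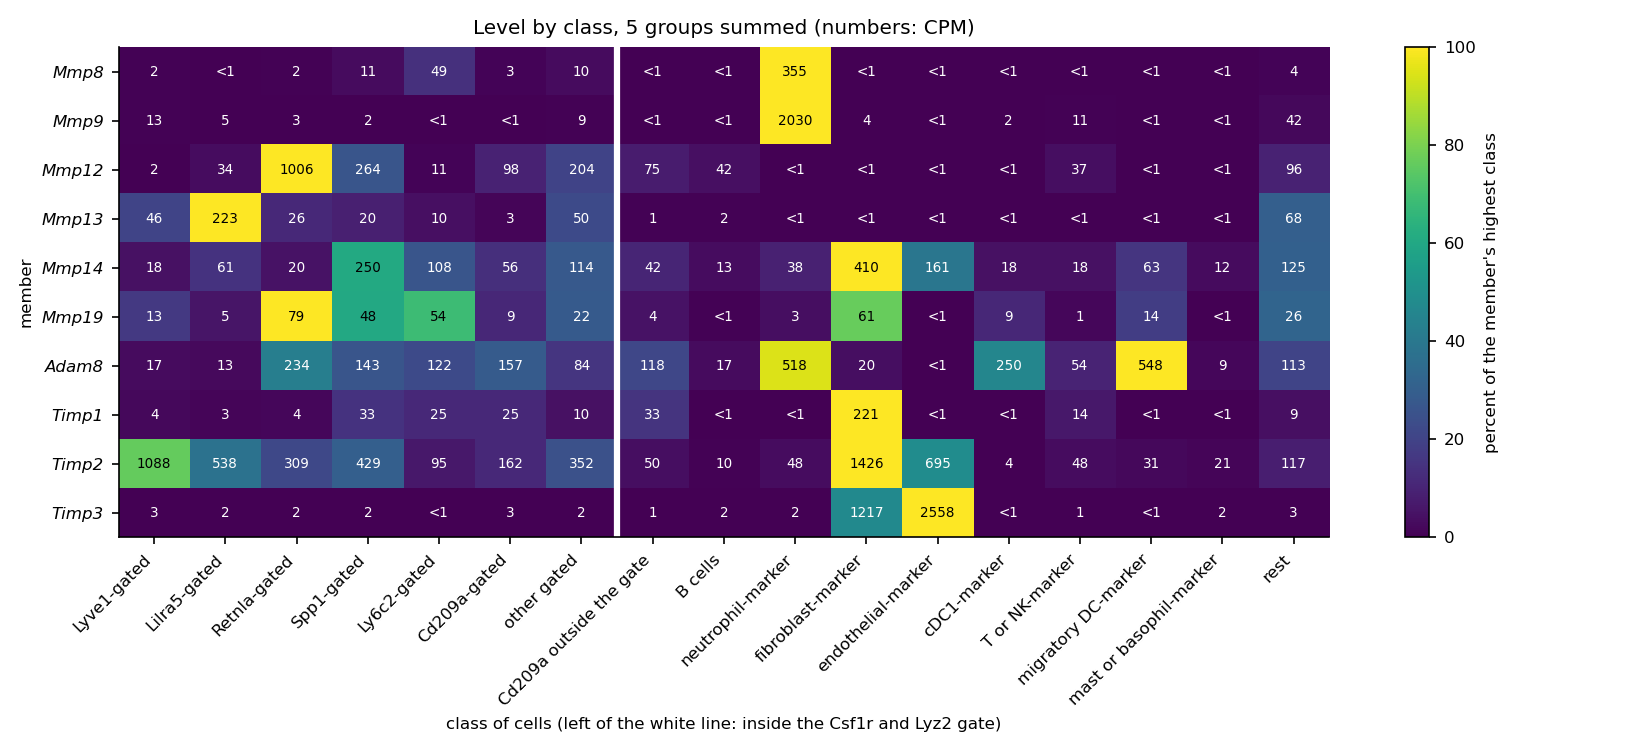
Level of each member (rows) in each class of cells (columns), with the 5 groups summed; numbers are CPM (<1 includes 0) and colours the percent of the member's highest class. Mmp12 peaked in Retnla-gated cells (1006 CPM), Mmp13 in Lilra5-gated cells (223 CPM) and Timp3 in the 15 endothelial-marker cells outside the gate (2558 CPM). Marker classes here hold only cells outside the gate.

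**Figure D2:**
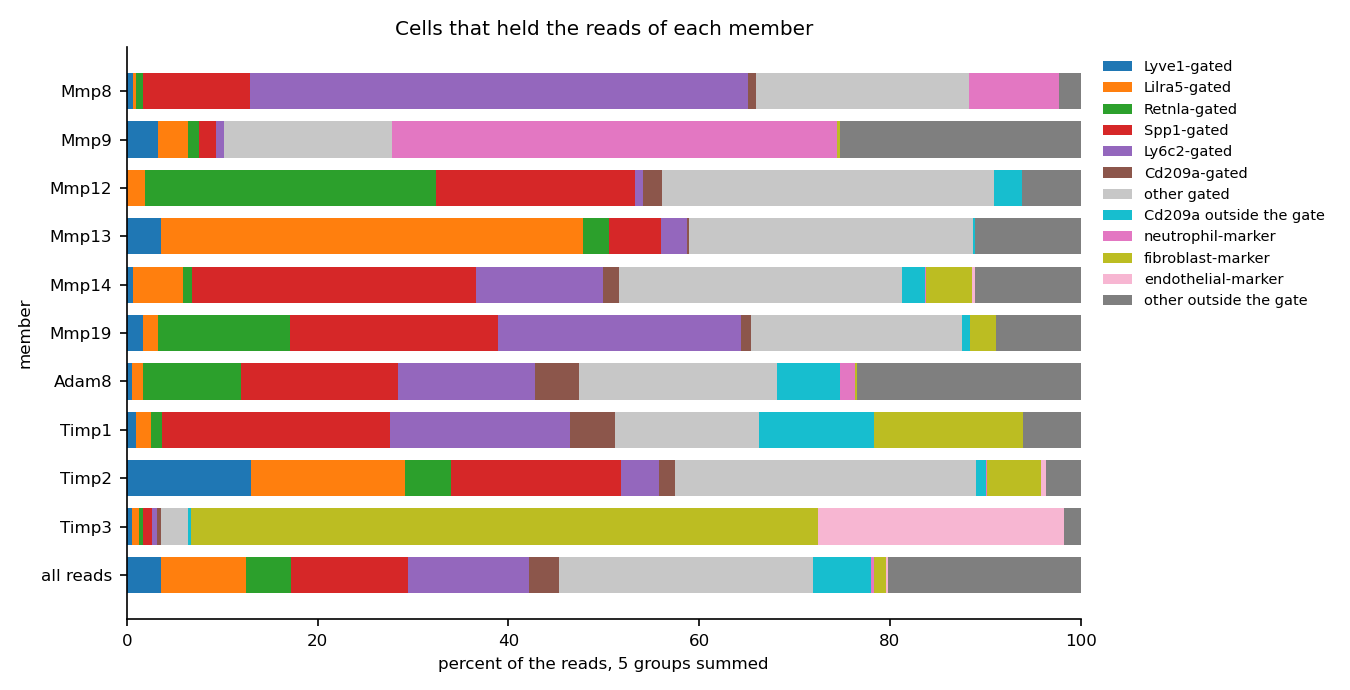
Percent of all reads of each member (rows) that each class of cells held, with the 5 groups summed; the last bar gives the share of all reads. Fibroblast-marker and endothelial-marker cells outside the gate held 65.7% and 25.8% of Timp3 reads, and Ly6c2-gated cells held 52.2% of Mmp8 reads.

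Of the collagenases, which cut fibrillar collagen, *Mmp13* (collagenase 3) had its highest level in *Lilra5*-gated cells. Over the 5 groups it stood at 223 CPM in *Lilra5*-gated cells, 50.2 CPM in unclassed gated cells, 45.7 CPM in *Lyve1*-gated cells and from 3.03 to 25.9 CPM in the other classes of the gate, and *Lilra5*-gated cells held 44.2% of its reads with 8.91% of all reads. In gated cells its level was 113 CPM in WT sham (interval 110 to 115), 106 CPM in CD3e-/- sham (104 to 109), 48.7 CPM in WT TAC (47.5 to 49.8), 18.4 CPM in CD3e-/- TAC (17.6 to 19.2) and 41.5 CPM in CD8-depleted TAC (40.1 to 42.9). Both sham groups thus lay above all 3 TAC groups, and CD3e-/- TAC was lowest. Within *Lilra5*-gated cells the level was 293 CPM in WT sham and 319 CPM in CD3e-/- sham, against 223 CPM in WT TAC, 172 CPM in CD8-depleted TAC and 81.6 CPM in CD3e-/- TAC. Both sham groups were again above the TAC groups, with a small gap in WT and a wide one in CD3e-/-. In classes where the level was low WT went the other way, with 7.71 CPM in sham and 36.5 CPM after TAC in *Spp1*-gated cells, 0 and 21.3 CPM in *Retnla*-gated cells and 0 and 20.7 CPM in *Ly6c2*-gated cells. A single cell held 67.4% of the WT TAC reads of the *Spp1*-gated cells, and without the cell with the most reads in each group the level there was 0 in sham and 12.02 CPM after TAC. In unclassed gated cells the level was 137 CPM in WT sham and 31.5 CPM in WT TAC, and 110 CPM in CD3e-/- sham and 16.1 CPM in CD3e-/- TAC. The share of gated cells with a read, after each cell was thinned to 39638 reads, was 18.5% in WT sham, 20.7% in CD3e-/- sham, 8.68% in WT TAC, 5.08% in CD3e-/- TAC and 9.27% in CD8-depleted TAC. Without thinning the shares were 17.2%, 21.5%, 8.66%, 5.33% and 9.71% in the same order. B cells (cells outside the gate with a *Cd79a* and an *Ms4a1* read), which served as the background, had an *Mmp13* read in 1 of 429 cells, at a median depth of 46418 to 58155 reads against 77842 to 129734 in gated cells. Genes of the early stress response to tissue digestion (*Fos*, *Jun*, *Egr1*, *Hspa1a*, *Hspa1b* and *Dusp1*, all 6 measured and none at 0) were, like *Mmp13*, higher in both sham groups. The summed level of these genes in *Lilra5*-gated cells was 16310 CPM in WT sham and 15703 CPM in CD3e-/- sham. After TAC it was 5969 CPM in WT, 5340 CPM in CD3e-/- and 4736 CPM in CD8-depleted TAC. In these cells WT TAC was the highest TAC group for them and for *Mmp13*, and the order was otherwise another. Between *Lilra5*-gated cells with and without an *Mmp13* read in the same group they were 19073 and 14798 CPM in WT sham, 15676 and 15725 CPM in CD3e-/- sham, 6750 and 5694 CPM in WT TAC, 4780 and 5462 CPM in CD3e-/- TAC and 6728 and 3967 CPM in CD8-depleted TAC. Their part in the *Mmp13* level was not tested. Over the 53 class-by-group profiles with 20 or more cells, those most like *Mmp13* in their levels were *Myh10*, a non-muscle myosin (Pearson r = 0.86), *Col14a1* (r = 0.83) and *Slco2b1* (r = 0.82), the last 2 being markers of the *Lilra5* gate; the profiles share 1 library and differ in depth, and r is a description.

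*Mmp8* (neutrophil collagenase) had its highest level inside the gate in *Ly6c2*-gated cells. With the groups summed it stood at 49.1 CPM in *Ly6c2*-gated cells, 10.8 CPM in *Spp1*-gated cells, 9.89 CPM in unclassed gated cells and 3.18 CPM or less in the other classes of the gate. The level within *Ly6c2*-gated cells was 88.6 CPM in WT sham (25 cells), 77.1 CPM in CD3e-/- sham (39 cells), 46.4 CPM in WT TAC, 49.3 CPM in CD3e-/- TAC and 38.8 CPM in CD8-depleted TAC. In WT sham 1 cell held 64.4% of these reads, and without the cell with the most reads in each group WT sham stood at 35.8 CPM, below the 40.3 CPM of WT TAC and the 43.9 CPM of CD3e-/- TAC, while CD3e-/- sham stayed highest at 66.0 CPM. Over all gated cells, in which *Ly6c2*-gated cells were more frequent after TAC, the order was another, with 9.39 CPM in WT sham (8.62 to 10.2), 14.3 CPM in CD3e-/- sham (13.3 to 15.3), 11.9 CPM in WT TAC (11.3 to 12.4), 18.7 CPM in CD3e-/- TAC (17.9 to 19.5) and 17.7 CPM in CD8-depleted TAC (16.8 to 18.6). In WT sham 1 cell held 33.1% of the gated *Mmp8* reads. The 60 cells with 3 or more neutrophil markers, 17 of them inside the gate, stood at 268 CPM and held 14.1% of *Mmp8* reads. Closest to *Mmp8* in profile were *Mgst1*, a microsomal glutathione transferase (r = 0.88), *C3*, complement component 3 (r = 0.88), and *Vcan*, versican (r = 0.88), and *Vcan* is a marker of the *Ly6c2* gate.

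*Mmp9* (gelatinase B), which cuts denatured collagen and type IV collagen, was low in gated cells. Its level there was 5.45 CPM in WT sham (4.87 to 6.09), 7.50 CPM in CD3e-/- sham (6.82 to 8.23), 4.38 CPM in WT TAC (4.05 to 4.73), 4.29 CPM in CD3e-/- TAC (3.92 to 4.69) and 6.53 CPM in CD8-depleted TAC (5.98 to 7.11), with a read in 36 gated cells in all. In WT sham 1 cell held 65.3% of the gated *Mmp9* reads, and in CD3e-/- sham 1 cell with neutrophil markers held 77.3%. Cells with 3 or more neutrophil markers (*S100a8*, *S100a9* and others), 17 of them inside the gate, stood at 1373 CPM and had an *Mmp9* read in 52 of 60 cells. Outside the gate they held 46.6% of all *Mmp9* reads, and inside and outside it together 62.7%, so part of the gated level came from them. Such cells numbered 0 of 1000 in WT sham, which by a floor of 3 counts allows a share of up to 0.3%, and 6, 16, 18 and 20 in CD3e-/- sham, WT TAC, CD3e-/- TAC and CD8-depleted TAC. In all CD45+ cells the *Mmp9* level was 5.15 CPM in WT sham, 7.46 CPM in CD3e-/- sham, 11.3 CPM in WT TAC, 25.8 CPM in CD3e-/- TAC and 15.5 CPM in CD8-depleted TAC, so the 3 TAC groups were higher there. In CD3e-/- TAC 1 cell outside the gate held 45.9% of the group's *Mmp9* reads. As in any sum over cells, fewer cells of a type and less RNA per cell cannot be told apart in these totals. No profile was close to that of *Mmp9*, and the most like reached only r = 0.48 (*Gm24270*), 0.47 (*Ctsk*) and 0.46 (*Gm24245*).

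*Mmp12* (macrophage elastase) had its highest level in *Retnla*-gated cells. With the groups summed it stood at 1006 CPM in *Retnla*-gated cells, 264 CPM in *Spp1*-gated cells, 204 CPM in unclassed gated cells, 98.2 CPM in *Cd209a*-gated cells and 33.6 CPM in *Lilra5*-gated cells, but at 10.6 CPM in *Ly6c2*-gated and 1.66 CPM in *Lyve1*-gated cells. *Retnla*-gated cells held 30.5% of its reads with 4.74% of all reads, and unclassed gated cells held 34.8%. In gated cells the level was 140 CPM in WT sham (137 to 143), 533 CPM in CD3e-/- sham (527 to 539), 194 CPM in WT TAC (192 to 196), 144 CPM in CD3e-/- TAC (141 to 146) and 76.4 CPM in CD8-depleted TAC (74.5 to 78.3). CD3e-/- sham stood apart from the other groups. In *Retnla*-gated cells the level was 534 CPM in WT sham (60 cells), 1592 CPM in CD3e-/- sham (64 cells) and 700 CPM in WT TAC (28 cells), and the other TAC groups had 6 and 7 such cells; the median depth of these cells was 132541 reads in WT sham and 194118 reads in CD3e-/- sham. In *Spp1*-gated cells *Mmp12* stood at 175 CPM in WT sham, 620 CPM in CD3e-/- sham, 292 CPM in WT TAC, 300.1 CPM in CD3e-/- TAC and 54.9 CPM in CD8-depleted TAC. A single cell held 71.7% of the reads of these cells in WT TAC and another 52.9% in CD3e-/- TAC. Without the cell with the most reads in each group the levels were 84.9, 417, 83.4, 144 and 20.9 CPM in the same order, so that CD3e-/- sham stayed highest and CD8-depleted TAC lowest, and WT sham and WT TAC lay side by side. In unclassed gated cells CD3e-/- sham was highest as well, at 294 CPM, and WT sham lowest, at 82.0 CPM. The share of gated cells with a read after thinning was 12.5% in WT sham, 22.4% in CD3e-/- sham, 7.64% in WT TAC, 6.63% in CD3e-/- TAC and 4.47% in CD8-depleted TAC (11.2%, 20.7%, 7.29%, 6.34% and 4.47% without thinning). B cells of CD3e-/- sham also stood apart, with a thinned share of 5.19% and a summed level of 145 CPM (4 of 110 cells with a read), against 4.79 CPM in WT sham and 0 in the 3 TAC groups. Its part in the level of the gated cells was not tested. Few cells carried the sum in the TAC groups, since the 1% of gated cells with the most *Mmp12* reads held 69.7% of them in WT TAC, 74.9% in CD3e-/- TAC and 74.9% in CD8-depleted TAC, against 37.2% in WT sham and 38.6% in CD3e-/- sham. The single highest cell held 21.2% of the WT TAC reads. Most like *Mmp12* in profile were *Pparg*, a lipid-sensing nuclear receptor (r = 0.72), *Plxnd1*, a semaphorin receptor (r = 0.71), and *Vdr*, the vitamin D receptor (r = 0.68).

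*Mmp14* (MT1-MMP), which is anchored in the cell membrane and cuts collagen and pro-MMP2 there, had a read in 2153 of 3612 gated cells. With the groups summed it stood at 250 CPM in *Spp1*-gated cells, 114 CPM in unclassed gated cells, 108 CPM in *Ly6c2*-gated cells, 60.6 CPM in *Lilra5*-gated cells and 55.7 CPM in *Cd209a*-gated cells, and at 20.1 CPM in *Retnla*-gated and 18.1 CPM in *Lyve1*-gated cells. Its level in gated cells was 48.6 CPM in WT sham (46.8 to 50.4), 60.1 CPM in CD3e-/- sham (58.1 to 62.1), 151 CPM in WT TAC (150 to 153), 134 CPM in CD3e-/- TAC (131 to 136) and 115 CPM in CD8-depleted TAC (113 to 117). All 3 TAC groups lay above both sham groups. The same split was present within *Lilra5*-gated cells, at 40.1 and 31.7 CPM in WT and CD3e-/- sham and 86.9, 67.9 and 67.7 CPM in WT, CD3e-/- and CD8-depleted TAC, and within unclassed gated cells, at 53.4 and 73.6 CPM in sham and 147, 123 and 96.8 CPM after TAC. *Spp1*-gated cells did not show it in CD3e-/-, where sham stood at 268 CPM (27 cells) and TAC at 207 CPM, while WT stood at 133 CPM in sham and 302 CPM after TAC. *Ly6c2*-gated cells showed it in CD3e-/-, at 32.8 and 133 CPM, and hardly in WT, at 98.5 and 103 CPM. In WT sham 1 of the 25 *Ly6c2*-gated cells held 82.5% of these reads, and without the cell with the most reads in each group the WT levels were 19.5 and 95.8 CPM. Of thinned gated cells, 36.0% in WT sham, 38.2% in CD3e-/- sham, 53.7% in WT TAC, 58.7% in CD3e-/- TAC and 48.2% in CD8-depleted TAC had a read (47.3%, 50.3%, 62.5%, 71.8% and 59.9% without thinning). After thinning, B cells had one in 12.7% in WT sham, 23.4% in CD3e-/- sham, 33.9% in WT TAC, 20.8% in CD3e-/- TAC and 18.2% in CD8-depleted TAC. Shares up to the level in the same group are background. The summed level of B cells was 10.2, 8.37, 14.8, 22.4 and 14.7 CPM in the same order, also higher in the TAC groups. In CD3e-/- TAC 1 B cell held 59.6% of these reads. The part of this background in the gated level was not tested. Cells with 3 or more fibroblast markers, 41 in number with 2 inside the gate, stood at 391 CPM and held 4.80% of *Mmp14* reads. Genes with the profile nearest to *Mmp14* were *Tgm2*, a transglutaminase that cross-links matrix proteins (r = 0.85), *Fabp5*, a fatty acid binding protein (r = 0.84), and *Tcirg1*, a subunit of the vacuolar proton pump (r = 0.83).

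*Mmp19*, a secreted enzyme with broad substrates, and *Adam8* were both low in *Lyve1*-gated and *Lilra5*-gated cells. *Mmp19* stood at 79.2 CPM in *Retnla*-gated, 54.4 CPM in *Ly6c2*-gated and 47.7 CPM in *Spp1*-gated cells with the groups summed, at 13.1 CPM in *Lyve1*-gated and at 4.602 CPM in *Lilra5*-gated cells. In gated cells *Mmp19* was at 15.5 CPM in WT sham (14.5 to 16.5), 50.2 CPM in CD3e-/- sham (48.4 to 52.1), 24.6 CPM in WT TAC (23.8 to 25.4), 43.3 CPM in CD3e-/- TAC (42.1 to 44.6) and 33.1 CPM in CD8-depleted TAC (31.8 to 34.3). Both CD3e-/- groups were above the WT group of the same operation. In sham the gap lay in *Retnla*-gated cells, at 26.8 CPM in WT and 152 CPM in CD3e-/-, and in unclassed cells, at 8.28 and 37.0 CPM, while *Ly6c2*-gated cells went the other way, at 62.2 and 22.7 CPM (22.1 and 12.8 CPM without the cell with the most reads in each group). A single cell held 20.4% of the CD3e-/- sham *Mmp19* reads. *Mmp19* was closest in profile to *F10*, coagulation factor X (r = 0.79), *Clec4e*, a receptor for mycobacterial glycolipids (r = 0.76), and *Cstb*, an inhibitor of cathepsins (r = 0.76).

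*Adam8* was at 234 CPM in *Retnla*-gated, 143 CPM in *Spp1*-gated and 122 CPM in *Ly6c2*-gated cells with the groups summed, and at 17.1 CPM in *Lyve1*-gated and 13.2 CPM in *Lilra5*-gated cells. Over the groups with 20 or more cells of a class, *Lilra5*-gated cells ranged from 2.64 to 23.5 CPM and did not overlap with *Spp1*-gated cells, at 128 to 164 CPM. *Cd209a*-gated cells stood at 157 CPM, and at 103 CPM without 1 cell of CD3e-/- TAC that also carried markers of macrophages of the body cavities and held 36.9% of the reads of the class. *Adam8* reached 545 CPM in the 21 cells with 3 or more markers of migratory dendritic cells, 411 CPM in the 60 with neutrophil markers and 242 CPM in the 151 cells with markers of conventional type 1 dendritic cells (cDC1), of which 123 had a read. In gated cells *Adam8* stood at 61.5 CPM in WT sham (59.5 to 63.5), 135 CPM in CD3e-/- sham (132 to 138), 113 CPM in WT TAC (111 to 115), 96.2 CPM in CD3e-/- TAC (94.4 to 98.0) and 92.5 CPM in CD8-depleted TAC (90.5 to 94.7). WT sham was the group that stood apart, below the others. *Adam8* was closest in profile to *Rnh1*, a ribonuclease inhibitor (r = 0.83), *S100a11*, a calcium-binding protein (r = 0.82), and *Gm10053* (r = 0.81).

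Among the inhibitors, *Timp2* was highest inside the gate in *Lyve1*-gated cells, *Timp1* was highest after TAC and *Timp3* was at background in the gated cells. *Timp2* stood at 1088 CPM in *Lyve1*-gated cells with the groups summed, 538 CPM in *Lilra5*-gated, 429 CPM in *Spp1*-gated, 352 CPM in unclassed and 309 CPM in *Retnla*-gated cells, and at 162 CPM in *Cd209a*-gated and 94.6 CPM in *Ly6c2*-gated cells. In *Lyve1*-gated cells of CD3e-/- TAC, 17 in number, it was 1593 CPM, or 1172 CPM without the cell with the most reads. Over the 4 groups with 20 or more of them, *Lyve1*-gated cells lay at 906 to 1041 CPM and did not overlap with *Lilra5*-gated cells, at 398 to 579 CPM, and *Ly6c2*-gated cells were lowest at 56.2 to 147 CPM. The level in gated cells was 428 CPM in WT sham (423 to 434), 307 CPM in CD3e-/- sham (302 to 311), 333 CPM in WT TAC (330 to 336), 445 CPM in CD3e-/- TAC (441 to 449) and 333 CPM in CD8-depleted TAC (329 to 337), a narrow range in which no comparison passed 2-fold. Cells with 3 or more markers of macrophages of the body cavities (*Gata6*, *Icam2*, *Saa3*, *Prg4*) stood at 1114 CPM and were found in CD3e-/- TAC (18 cells) and CD8-depleted TAC (6 cells), where they held 16.8% and 4.32% of the *Timp2* reads. *Timp2* was closest in profile to *Selenop*, a selenium transport protein (r = 0.95), *Cd300ld*, a myeloid surface receptor (r = 0.93), and *Dhrs3*, a retinal reductase (r = 0.92).

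*Timp1* was sparse, with a read in 161 gated cells. Its level in gated cells was 1.98 CPM in WT sham (1.63 to 2.38), 5.83 CPM in CD3e-/- sham (5.23 to 6.49), 18.6 CPM in WT TAC (17.9 to 19.3), 20.9 CPM in CD3e-/- TAC (20.05 to 21.7) and 19.0 CPM in CD8-depleted TAC (18.1 to 19.99). The 3 TAC groups lay close together and above both sham groups. In *Spp1*-gated cells it was 3.16 CPM in WT sham, 20.4 CPM in CD3e-/- sham, 50.6 CPM in WT TAC, 27.5 CPM in CD3e-/- TAC and 19.0 CPM in CD8-depleted TAC (1.41, 11.7, 32.4, 17.9 and 12.8 CPM without the cell with the most reads in each group), and in *Cd209a* cells outside the gate 4.78, 0.724, 40.6, 105 and 42.8 CPM in the same order of groups. Cells with 3 or more fibroblast markers, 41 in all, stood at 214 CPM and held 16.05% of *Timp1* reads. They held 72.1% of the *Timp1* reads of WT sham and 37.0% of those of CD3e-/- sham, but 6.89% of those of WT TAC, 19.9% of those of CD3e-/- TAC and 4.32% of those of CD8-depleted TAC. *Timp1* was closest in profile to *AA467197*, also known as *Nmes1* (r = 0.75), *Mcemp1*, a mast cell membrane protein (r = 0.72), and *Cd300lf*, a myeloid surface receptor (r = 0.71).

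*Timp3*, whose protein stays bound to the matrix, was at 1.49 CPM in WT sham (1.19 to 1.84), 4.63 CPM in CD3e-/- sham (4.09 to 5.21), 1.99 CPM in WT TAC (1.77 to 2.23), 1.015 CPM in CD3e-/- TAC (0.837 to 1.22) and 1.66 CPM in CD8-depleted TAC (1.39 to 1.96) in gated cells. The thinned share of gated cells with a read was 1.69 to 4.17% and that of B cells 1.82 to 7.14%, so these values were at the level of background. In all CD45+ cells the level was 63.0 CPM in WT sham, 49.2 CPM in CD3e-/- sham, 4.92 CPM in WT TAC, 3.98 CPM in CD3e-/- TAC and 19.6 CPM in CD8-depleted TAC. The cells with fibroblast markers, which numbered 13 and 13 in the sham groups and 5, 6 and 4 in WT, CD3e-/- and CD8-depleted TAC, stood at 1173 CPM and held 66.8% of all *Timp3* reads. The 20 cells with endothelial markers, 8 and 5 in the sham groups and 4, 1 and 2 in the TAC groups, stood at 1583 CPM and held 26.1%. Of these 20 cells, 5 lay inside the gate. Both sham groups thus had more cells of either kind than any TAC group. Among the TAC groups the count and the level did not go together, since the 4 fibroblast-marker cells of CD8-depleted TAC stood at 1797 CPM, against 572 CPM in WT TAC and 166 CPM in CD3e-/- TAC (1646 and 1217 CPM in WT and CD3e-/- sham). The part of these cells in the *Timp3* level of CD45+ cells was not tested.

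**Figure D3:**
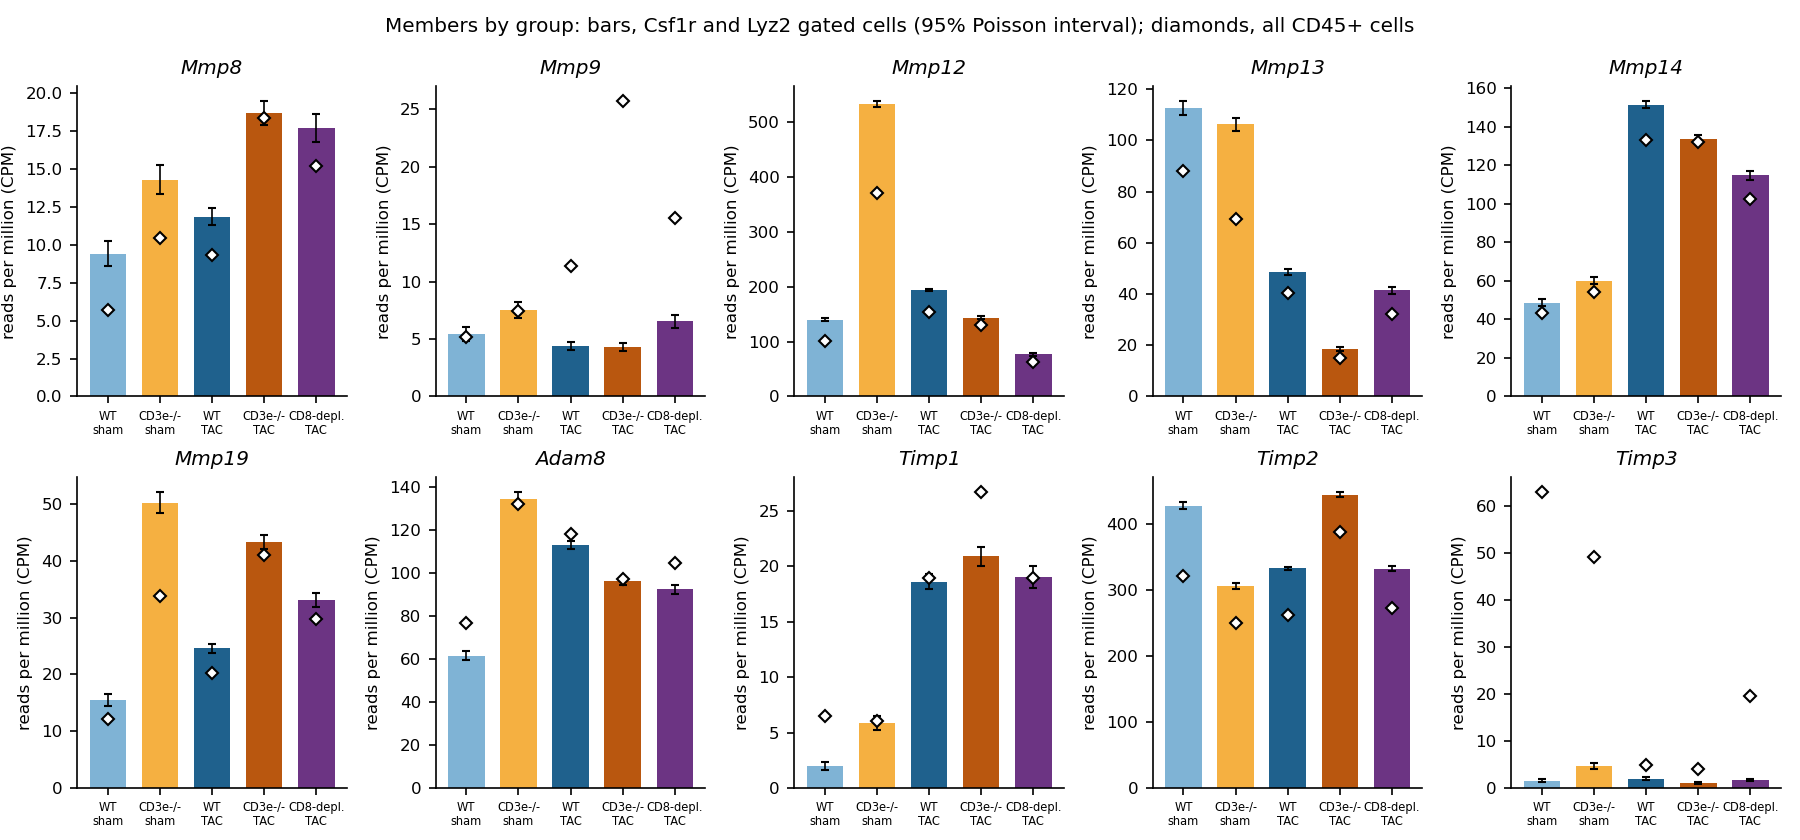
Level of each member (panels, CPM on linear axes that start at 0) in the 5 groups; bars are gated cells with 95% Poisson intervals for counting error and diamonds all CD45+ cells. Mmp13 was lower and Mmp14 and Timp1 were higher in the 3 TAC groups than in both sham groups, and Mmp9 and Timp3 differed between bars and diamonds.

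The next comparisons ask how these levels in gated cells differed with TAC, with the lack of CD3e and with the CD8 antibody. Ratios are given as log2 with 10 CPM added to both groups, and a gene counted as past 2-fold with a log2 ratio of 1 or more in size and 20 CPM or more in 1 of the 2 groups. The comparisons share groups, so their values are not independent of each other.

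TAC against sham in WT, the response to pressure load with T cells present, left 1 member higher and 1 lower of the 6 with 20 CPM. *Mmp14* was higher, with a log2 ratio of 1.46 (48.6 to 151 CPM), and *Mmp13* was lower, with a log2 ratio of -1.06 (113 to 48.7 CPM). Over all 7029 genes at this level 1.08% were past 2-fold higher and 0.711% lower (1.79% either way). The median log2 ratio was 0.44 for the members and 0.03 for all genes. For the members it was -0.18 for TAC in CD3e-/- and -0.23 for CD8-depleted TAC against WT TAC. For CD3e-/- against WT it was 0.64 in sham and -0.17 after TAC. Those of all genes lay from -0.02 to 0.05. *Adam8* (0.78), *Mmp12* (0.45), *Mmp19* (0.44) and *Timp2* (-0.35) stayed within 2-fold, and *Timp1*, at 1.26, had under 20 CPM in both groups, as had *Mmp8*, *Mmp9* and *Timp3* in all 5 comparisons. Within unclassed cells *Mmp12* was higher after TAC, with a log2 ratio of 1.49 (1.20 without the cell with the most reads in each group). With class shares set equal in all groups no member was past 2-fold, with *Mmp14* at 0.95 and *Mmp13* at -0.70. *Mmp13* was also within 2-fold in all CD45+ cells (-0.97) and in gated cells of 50000 to 200000 reads (-0.99). The value of *Mmp12* turned to -0.49 without the 1% of cells with the most *Mmp12* reads and to -1.06 in cells of 50000 to 200000 reads.

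In CD3e-/- mice, TAC against sham left 1 of 7 members higher and 2 lower. *Mmp14* was higher (log2 ratio 1.03, 60.1 to 134 CPM), *Mmp13* was lower (-2.03, 106 to 18.4 CPM) and so was *Mmp12* (-1.82, 533 to 144 CPM). Of 6934 genes 1.93% were past 2-fold higher and 1.21% lower (3.14% either way). *Timp1* stood just inside the limit at 0.96 and *Timp2* at 0.52, while *Adam8* (-0.45) and *Mmp19* (-0.18) were on the other side of 0. Within the *Lilra5*-gated cells *Mmp13* had a log2 ratio of -1.85, and within the *Spp1*-gated cells *Mmp12* had -1.02 (-1.48 without the cell with the most reads in each group). Set to equal class shares, *Mmp13* stood at -1.71 and *Mmp12* at -1.11 and both stayed past 2-fold, whereas *Mmp14* stood at 0.40. For *Timp2* the value without cells that carry markers of another cell type was 0.39. Within *Spp1*-gated cells *Timp2* had a log2 ratio of 1.62 (1.57 without the cell with the most reads in each group).

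CD3e-/- against WT in sham, the comparison of unloaded hearts without and with T cells, left 3 of 6 members higher, where 0.319% of 6904 genes were, and none lower, where 0.261% were (0.579% either way). *Mmp12* was higher with a log2 ratio of 1.85 (140 to 533 CPM), *Mmp19* with 1.24 (15.5 to 50.2 CPM) and *Adam8* with 1.02 (61.5 to 135 CPM). *Mmp13* (-0.08), *Mmp14* (0.26) and *Timp2* (-0.47) were within 2-fold. *Mmp12* was also higher within *Retnla*-gated (1.56), *Spp1*-gated (1.76), *Lilra5*-gated (1.63) and unclassed cells (1.72), and without the cell with the most reads in each group these values were 1.57, 2.17, 1.58 and 1.69. *Adam8* was higher within *Retnla*-gated (0.80), *Cd209a*-gated (1.12) and unclassed cells (1.49) but not within *Spp1*-gated (-0.12) and *Ly6c2*-gated cells (-0.11, or 0.24 without the cell with the most reads in each group). The ratios were smaller in gated cells of 50000 to 200000 reads, 401 in WT sham and 308 in CD3e-/- sham with medians of 90701 and 91607 reads. There *Mmp12* stood at 141 and 236 CPM (log2 ratio 0.70) and *Mmp19* at 15.05 and 19.9 CPM (0.26). *Adam8* stood at 46.2 and 73.3 CPM (0.57), and none was past 2-fold. *Retnla*-gated cells, the class with the highest level of these members, had median depths of 132541 reads in WT sham and 194118 reads in CD3e-/- sham. The window can therefore change the class makeup as well as the depth, and the part of either was not tested.

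After TAC, CD3e-/- against WT left 1 of 7 members lower, *Mmp13* with a log2 ratio of -1.05 (48.7 to 18.4 CPM), and none higher, with 0.202% of 6924 genes lower and 0.39% higher (0.592% either way). Within *Lilra5*-gated cells its ratio was -1.35, and within unclassed cells it was -0.67. It stood at -0.83 without the 1% of cells with the most *Mmp13* reads. *Mmp19* (0.62), *Timp2* (0.41), *Mmp12* (-0.41), *Adam8* (-0.21), *Mmp14* (-0.17) and *Timp1* (0.11) were within 2-fold. Within *Ly6c2*-gated cells *Timp2* had 1.25, or 0.74 without the cell with the most reads in each group.

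The group labelled CD8-depleted TAC against WT TAC left 1 of 6 members lower and none higher, where 0.13% of 6925 genes were lower and 0.13% higher (0.26% either way). *Mmp12* was lower with a log2 ratio of -1.24 (194 to 76.4 CPM), within *Spp1*-gated cells with -2.22 (-1.60 without the cell with the most reads in each group) and within unclassed cells with -0.78. With each cell weighted the same it stood at -0.86, and in cells of 50000 to 200000 reads at -0.88 (62.7 to 29.6 CPM). *Mmp14* (-0.37), *Mmp19* (0.31), *Adam8* (-0.26), *Mmp13* (-0.19) and *Timp2* (0.00) were within 2-fold.

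**Figure D4:**
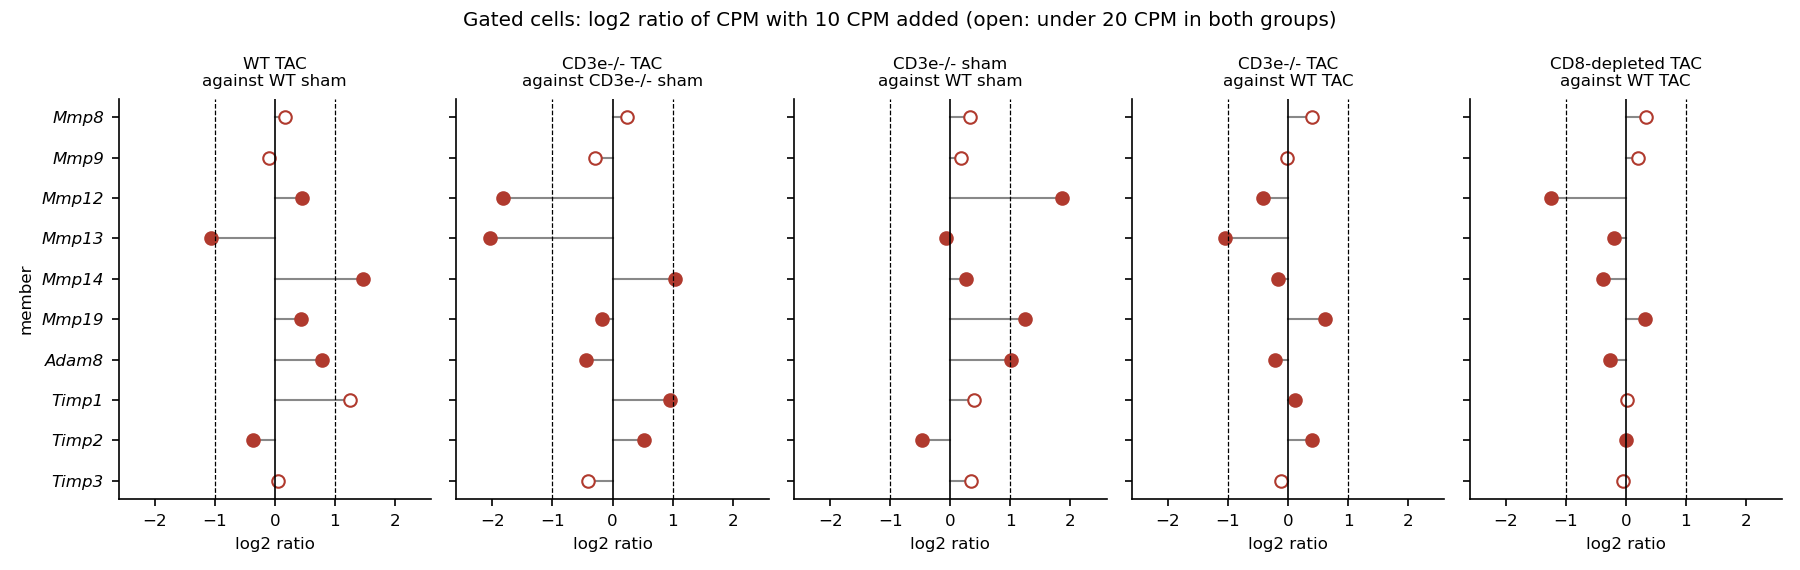
Log2 ratio (first group over second, 10 CPM added) of each member in the 5 comparisons of gated cells; dashed lines mark 2-fold and open circles members under 20 CPM in both groups. Mmp14 was past 2-fold higher and Mmp13 past 2-fold lower after TAC in WT and in CD3e-/-, and Mmp12 reached 1.85 between the sham groups.

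**Figure D5:**
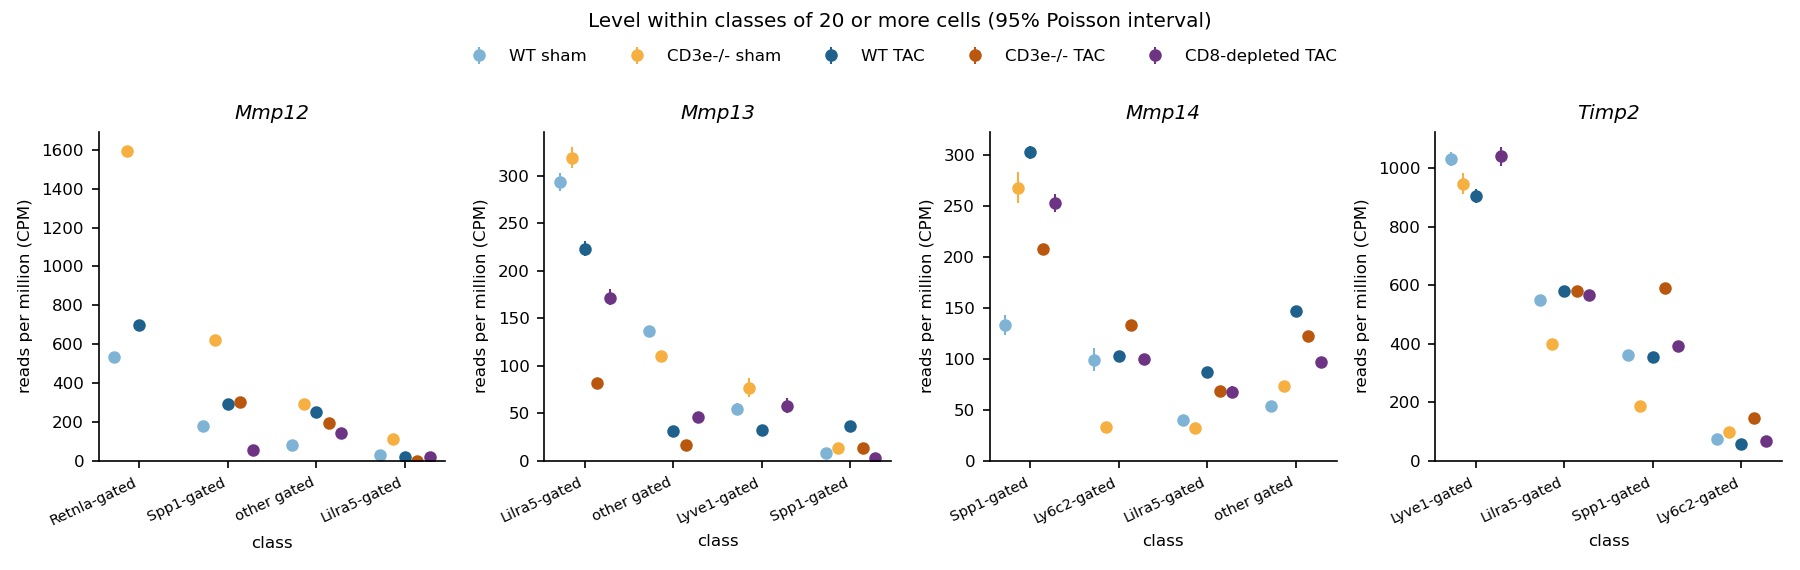
Level (CPM, linear axes from 0) of 4 members within classes of 20 or more gated cells; colours are the groups and bars the 95% Poisson intervals for counting error. Mmp13 in Lilra5-gated cells ran from 319 CPM in CD3e-/- sham to 81.6 CPM in CD3e-/- TAC, and Timp2 in Lyve1-gated cells lay between 906 and 1041 CPM in the 4 groups with 20 or more such cells.

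Other genes of matrix turnover were taken from a list of 49 further metalloproteinases, plasminogen activators, cathepsins and their partners, of which 43 were measured and 16 to 18 reached 20 CPM in a comparison. Of all genes at this level, 1.79% were past 2-fold either way for TAC in WT and 3.14% for TAC in CD3e-/-. For CD3e-/- against WT the share was 0.579% in sham and 0.592% after TAC, and for CD8-depleted TAC it was 0.26%. In a list this short 1 gene alone exceeds each of these shares. After TAC in WT 0 of 17 were higher and 1 lower, *Adam33*, a membrane protease (28.4 to 6.95 CPM). After TAC in CD3e-/- 2 of 18 were higher, among them *Ctsl*, the lysosomal cathepsin L (83.4 to 273 CPM, log2 ratio 1.60), and 1 was lower, *Adam19*, a protease that sheds neuregulins (60.2 to 24.5 CPM, -1.03). Between CD3e-/- and WT, 0 of 17 passed 2-fold in sham and 1 of 18 after TAC, *Serpinb2*, a serine protease inhibitor, which was higher in CD3e-/- (4.23 to 25.1 CPM, 1.30). In CD8-depleted TAC against WT TAC 0 of 16 passed. The median log2 ratio of the list was 0.23 and 0.20 for TAC in WT and CD3e-/-, -0.15 and 0.09 for CD3e-/- against WT in sham and TAC, and -0.02 for CD8-depleted TAC.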

How the data were processed

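CD45+ heart cells of 5 hashtag groups were sequenced in 1 pooled TAS-Seq library (BD Rhapsody). The authors deposited raw read counts per gene and cell, kept barcodes above an inflection point, corrected errors from the distribution of reads and assigned hashtags; per the labels they used cutadapt 2.10, Bowtie2 2.4.2 and the build GRCm38, with roles not given in the sources used here. After the correction a cell with a read had at least 19 reads for *Mmp12*, 7 for *Timp2* and 6 for *Mmp9*, *Mmp13*, *Mmp19*, *Adam8* and *Timp1*, so a listed 0 can be a value under that limit, and shares of cells are not compared between genes. Of 5363 columns, 48 were not used (40 doublets called by the authors, 8 without hashtag); doublets within a hashtag were not removed. Reads were summed per group and class and divided by summed totals. Shares were taken after thinning each cell to 39638 reads, the 10th percentile, which left out 97, 69, 106, 45 and 45 shallower gated cells of WT sham, CD3e-/- sham, WT TAC, CD3e-/- TAC and CD8-depleted TAC. A marker counted at 50 CPM or more. With 1 sample per group no test was made. Gate limits were chosen from the levels of the gate genes; members, lists and gate genes were chosen with earlier results of these data known. Named genes were the members, genes of the list of 49 past 2-fold (1 of them is not reported here), and the 3 genes most like each member with 20 CPM or more in a profile (Pearson r of log2(CPM + 10), genes of 50 CPM or more in a profile). The ratio step was tested on simulated data. Intervals are Poisson (levels) and Clopper-Pearson (shares), 95%. Analyses were run in Python 3.11.15 with pandas 2.3.3, scipy 1.17.1, matplotlib 3.10.9 and numpy 2.4.6.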

Additional observations from a re-analysis of the deposited data

Results flagged for a closer look

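Members with 20 CPM or more were picked out where TAC against sham went up in one genotype and down in the other. These differences were not tested, since each group was 1 sample. Of the 15 alternatives, dropping the limit on low values and adding 1 CPM in place of 10 could not turn a sign. A limit of 1000 genes per cell left the values as they were. *Mmp12* had a log2 ratio of 0.45 in WT and -1.82 in CD3e-/-, a difference of 2.27, and the directions were opposite under 12 of 15 alternatives; with each cell weighted the same, without the 1% of cells with the most reads and in cells of 50000 to 200000 reads it was below 0 in both genotypes. *Adam8* had 0.78 in WT and -0.45 in CD3e-/-, a difference of 1.23, and the directions were opposite under 14 of 15 alternatives, all but equal class shares (0.67 and 0.02). *Mmp19* had 0.44 and -0.18, a difference of 0.62, opposite under 10 of 15. In the rest it was above 0 in both genotypes, with 0.18 in WT and 0.22 in CD3e-/- at equal class shares. *Timp2* went the other way, with -0.35 in WT and 0.52 in CD3e-/-, a difference of -0.88, opposite under 13 of 15, and in cells of 50000 to 200000 reads its value in CD3e-/- was -0.06.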

How the results depend on the processing

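The 10 ratios past 2-fold kept their sign under each of the 15 alternatives, and stayed past 2-fold in 130 of 150 cases. Those of *Mmp12* and *Mmp13* for TAC in CD3e-/- did so in all 15. Some alternatives could not undo a call. Dropping the limit on low values leaves these ratios as they are, and adding 1 CPM in place of 10 can only enlarge them. The number of members past 2-fold moved from 2 to 0 for TAC in WT with class shares set equal (in cells of 50000 to 200000 reads *Mmp12*, and in all CD45+ cells *Timp3*, was lower in place of *Mmp13*) and from 3 to 6 for TAC in CD3e-/- in all CD45+ cells, where *Mmp9*, *Timp1* and *Timp3* passed as well. For CD3e-/- against WT in sham it moved from 3 to 1 in all CD45+ cells, with each cell weighted the same and with class shares set equal, and to 0 in cells of 50000 to 200000 reads. After TAC it moved from 1 to 0 for CD3e-/- against WT in all CD45+ cells and without the 1% of cells with the most reads, and for CD8-depleted TAC from 1 to 0 with each cell weighted the same and in cells of 50000 to 200000 reads. The depth window, the removal of cells with markers of another type and of the single highest cell of a group or class were chosen after seeing the data. With class limits divided by 2, multiplied by 2 and taken in reverse order, the share of gated reads in the leading class was 64.8%, 50.9% and 61.3% for *Mmp8* in *Ly6c2*-gated cells (59.2% as reported), 36.9%, 32.8% and 25.7% for *Mmp12* in *Retnla*-gated cells (33.5%), 53.2%, 39.1% and 52.4% for *Mmp13* in *Lilra5*-gated cells (49.8%), 44.3%, 29.8% and 29.3% for *Mmp14* in *Spp1*-gated cells (36.7%), and 14.8%, 14.2% and 10.7% for *Timp2* in *Lyve1*-gated cells (14.6%), and the class with the highest level of these 5 members was the same each time. No paired analysis was possible because each group was 1 sample. Thin classes, such as 6 *Retnla*-gated cells in CD3e-/- TAC, limit what can be said within them.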

Other observations

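A single cell carried much of *Mmp9* after TAC in CD3e-/-. It lay outside the gate, held 1609 of the 8743 *Mmp9* reads of the library (18.4%) and reached 8031 CPM. In the same cell *Ctsk*, the collagen-degrading cathepsin K, stood at 5760 CPM, *Acp5*, tartrate-resistant acid phosphatase, at 2925 CPM, *Atp6v0d2*, a subunit of the proton pump, at 1058 CPM and *Csf1r* at 829 CPM, whereas *Lyz2*, *S100a8* and *S100a9* were listed at 0. *Ctsk*, *Acp5* and *Atp6v0d2* are known from osteoclasts. Of other osteoclast genes looked up, *Nfatc1* stood at 454 CPM, while *Dcstamp*, *Ocstamp* and *Oscar* were listed at 0. *Nfatc1* also stood at 431 CPM in a cell with neutrophil markers that was high in *Mmp9*. All were looked up after the cell had been seen, and 1 cell gives no measure of spread.

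Members that shared classes were also found in the same cells. Of the 368 gated cells with an *Mmp19* read 56.5% also had an *Adam8* read, which 20.6% of all gated cells had, and of the 329 cells with an *Mmp12* read 56.2% had one. Of the 412 cells with an *Mmp13* read 9.71% had an *Adam8* read and 85.2% a *Timp2* read, which 62.0% of all gated cells had. Of the 161 cells with a *Timp1* read 62.1% had an *Adam8* read. The cells differ in depth and share a library, and these are counts with no test.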
